A study of Mus musculus with 20 samples.

Results

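State 5 is the trajectory segment that holds the last cells of the estradiol (E2) branch, at pseudotime 52.3 to 61.5, and its members are the 151 of 589 cells that carry the label State 5 in the deposited cell annotation. Pseudotime is the distance of a cell along a tree fitted through its expression, and a state is 1 segment of that tree. The cells were primary ovarian surface epithelial (OSE) cells of mouse in culture, the single epithelial layer that covers the ovary. All cells spent 48 hours in hormone-free medium with charcoal-stripped serum, after which the E2 group received 100 nM E2 and the control group received the vehicle, ethanol at 0.0002%, and both were collected at day 15. Single cells were captured on 1 Fluidigm C1 chip whose 20 plate columns each gave 1 cDNA library of the 3′ ends of transcripts. Columns 1 to 10 were loaded with control cells through 1 inlet and columns 11 to 20 with E2-treated cells through the other, and column 13 held no cells in the data. Each condition is therefore 1 cell suspension, the spread between columns covers the sampling of cells and the making of libraries, and treatment, suspension and state cannot be told apart where State 5 is set against control cells. The mouse strain, the age of the donors and the number of donors behind each suspension are not given for these cells in the sources used here.

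Estradiol enters cells and binds estrogen receptors, encoded by Esr1 and Esr2, which act as transcription factors at estrogen response elements or by contact with other factors. The genes proposed as markers of State 5 have known roles. Greb1 encodes a coregulator that is a classical direct target of the estrogen receptor. Igfbp5 encodes a secreted protein that binds insulin-like growth factors. Enpp2 encodes autotaxin, the secreted enzyme that makes lysophosphatidic acid. Lpl encodes lipoprotein lipase, which releases fatty acids from circulating lipid, and Ctsh encodes cathepsin H, a lysosomal protease.

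The marker genes lie on different chromosomes of GRCm38. Igfbp5 (ENSMUSG00000026185) spans chr1:72857932-72874884 on the minus strand, Enpp2 spans chr15:54838901-54952892 on the minus strand and Lpl spans chr8:68880491-68907448 on the plus strand. Greb1 spans chr12:16670615-16800886 on the minus strand and Ctsh spans chr9:90054152-90076089 on the plus strand. The promoter windows printed here were taken from RefSeq on GRCm38.p6 and run from 250 bases before to 50 bases after an annotated start. Those of the estrogen-responsive gene Greb1, the marker Igfbp5 and the lysosomal gene Creg1 are shown. Of 15 genes named by rank or as markers, 7 had a window in the set used. Enpp2, Lpl, Ctsh and Lgals1 had none. Capitals mark the half-site of the estrogen response element, GGTCA or its reverse complement TGACC.

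Igfbp5, chr1:72874816-72875115, minus strand: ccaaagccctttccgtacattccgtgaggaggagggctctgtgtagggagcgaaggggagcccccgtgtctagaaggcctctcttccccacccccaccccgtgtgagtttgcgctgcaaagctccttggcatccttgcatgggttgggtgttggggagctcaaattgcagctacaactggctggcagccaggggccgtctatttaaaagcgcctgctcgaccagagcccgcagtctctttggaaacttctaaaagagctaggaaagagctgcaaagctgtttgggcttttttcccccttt
Greb1 first start, chr12:16800837-16801136, minus strand: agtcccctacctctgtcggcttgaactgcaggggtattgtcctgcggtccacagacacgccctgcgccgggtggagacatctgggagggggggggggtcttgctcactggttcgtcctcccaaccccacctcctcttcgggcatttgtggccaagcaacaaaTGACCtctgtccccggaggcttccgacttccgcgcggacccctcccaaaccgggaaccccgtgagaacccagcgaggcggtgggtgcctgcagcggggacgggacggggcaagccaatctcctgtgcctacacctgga
Greb1 second start, chr12:16757190-16757489, minus strand: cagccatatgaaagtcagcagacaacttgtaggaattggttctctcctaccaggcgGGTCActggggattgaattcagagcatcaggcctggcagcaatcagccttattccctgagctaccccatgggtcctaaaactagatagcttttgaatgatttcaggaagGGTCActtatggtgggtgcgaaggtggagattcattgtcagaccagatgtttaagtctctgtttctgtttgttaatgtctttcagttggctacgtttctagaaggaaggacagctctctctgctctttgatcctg
Creg1, chr1:165763508-165763807, plus strand: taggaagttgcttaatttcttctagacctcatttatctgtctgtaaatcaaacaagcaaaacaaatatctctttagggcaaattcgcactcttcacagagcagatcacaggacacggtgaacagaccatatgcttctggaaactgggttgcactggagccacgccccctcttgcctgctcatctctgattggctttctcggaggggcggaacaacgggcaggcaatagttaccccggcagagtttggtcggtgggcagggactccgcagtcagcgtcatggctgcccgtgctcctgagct

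The first Greb1 window held 1 half-site, beginning at base 163, and the second held 2, the first of them at base 57. The Igfbp5 and Creg1 windows held none. Over both strands, 40.5% of 32851 windows of this length held a half-site, and 0.0700% held the full estrogen response element, a pair of inverted half-sites spaced by 3 bases. None of these 4 windows held the full element. A match is a description of the letters, and 3′ reads do not show which start a cell used.

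Before any result, 1 library stood apart. Across 3754 genes at a mean of at least 50 CPM in State 5 (read counts scaled to a common library size), the State 5 sum of column 15 had a correlation of 0.605 with the median of the other State 5 columns, against 0.870 to 0.917 for the other columns. In column 15, 290 of these genes were more than 2-fold above every other State 5 column and 423 were more than 2-fold below, against 1 to 10 and 25 to 76 genes in the other columns. The same column stood apart when all its cells were summed (0.652, against 0.911 to 0.948 for the other E2 columns). The counts of genes, and the fold changes that moved most, are therefore also given without it. State 5 cells had a median of 118200 reads, between 36178 and 229809, with 4070 genes and 2.46% of reads on mitochondrial genes. The values were 112423 reads, 4241 genes and 2.33% in State 4 cells of the E2 columns, and 149368 reads, 4627 genes and 2.04% in State 2 cells of the control columns.

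State 5 made up most of the E2-treated cells and held no control cell. In the 9 E2 columns it took between 50% and 63.0% of the cells, with a median of 59.3% and a mean of 58.1% ± 4.10 (SD, n = 9), from 13 to 19 cells per column. Pooled, 151 of 260 E2 cells were in State 5 (58.1%, exact 95% binomial interval 51.8 to 64.1%). None of the 329 control cells was, for which the upper end of the same exact interval is 1.11% and a floor of 3 counts is 0.912%. The other E2 cells fell into State 1 (41 cells), State 2 (4), State 4 (43) and State 6 (21). The control cells fell mainly into State 1 (148) and State 2 (143), with 21 in State 4. The intervals cover counting error only throughout. All 151 cells shared 1 label in the deposited 3-cluster grouping. So did 21 of 21 State 6, 42 of 43 E2 State 4 and 4 of 4 E2 State 2 cells, so the label is not particular to State 5. The State 5 cells came from all 40 rows of the chip.

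**Figure D1:**
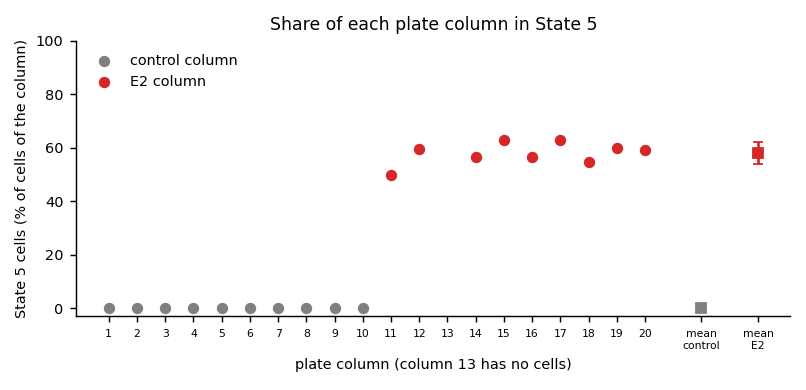
Percent of the cells of each plate column that were in State 5, with 1 point per column and, at the right, the mean with its SD over 10 control and 9 E2 columns. The E2 columns lie between 50% and 63.0% and every control column is at 0%.

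The authors derived the states and pseudotime from expression in these cells, so a gene that differs between states describes the grouping and does not test it. A gene is named called where edgeR's quasi-likelihood fit over all genes gave it a Benjamini-Hochberg adjusted p under 0.05 and a log2 fold change beyond 0.5 in either direction. Calls serve only to sort genes, and no p of a gene is given. The number of reads per cell was the 1 measure tested. In the 8 columns with at least 3 cells of both states, the median reads per cell averaged 118450 ± 22628 (SD) in State 5 and 115486 ± 44211 in State 4. The difference of 2963 reads was within the spread, with State 5 higher in 3 of 8 columns (exact two-sided sign-flip permutation p = 0.914, where 0.00781 is the smallest possible).

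Of the 5 markers, Igfbp5, Enpp2 and Ctsh had their highest mean level in State 5 among the states compared. Lpl was about as high in E2 State 1, and its reads per cell in E2 State 6 were near those of State 5. Whether mean Greb1 was higher in State 5 or in State 4 depended on column 15. Levels are normalised CPM of the reads summed over the cells of a column and a state, with a sum kept where it held at least 3 cells. The 5 markers summed to 2575 to 5373 CPM in State 5 and 1362 to 2995 CPM in State 4. In E2 State 6, at pseudotime 53.2 to 54.4 and so inside the State 5 range, they summed to 1002 to 3288 CPM. Igfbp5 ran from 642 to 2006 CPM over the 9 State 5 columns, with a median of 1107. In State 4 of the E2 columns it ran from 11.9 to 902 with a median of 549, and in State 2 of the control columns from 71.8 to 291 with a median of 144. The lowest State 5 column was thus above every control State 2 column and below the highest State 4 column. In E2 State 1, the early segment of the tree, Igfbp5 averaged 30.5 CPM over 7 columns.

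Enpp2 ran from 168 to 1344 CPM in State 5 with a median of 508, and its highest value was in column 15. Without that column the mean was 481 ± 247 (SD, n = 8) in place of 577 ± 369 (n = 9). State 4 ran from 0 to 701 CPM with a median of 86.5, and its top value was also in column 15. Control State 2 ran from 0 to 168 CPM with a median of 4.45. The lowest State 5 column lay just above the highest control State 2 column, and it lay inside the range of State 4.

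Ctsh ran from 433 to 725 CPM in State 5, with a median of 545. State 4 ran from 201 to 616 CPM, E2 State 6 averaged 346 CPM over 5 columns, and control State 2 ran from 70.2 to 176 CPM. E2 State 1 averaged 7.14 CPM, so Ctsh separated State 5 from State 1 and from the control branch more clearly than from State 4, with which its columns overlapped.

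Lpl ran from 879 to 1981 CPM in State 5 with a median of 1079. Its mean was 1181 ± 339 (SD, n = 9), or 1081 ± 169 without column 15. E2 State 1 averaged 1129 CPM over 7 columns, and State 4 averaged 896 ± 272 (n = 8). Control State 2 ran from 190 to 386 CPM, below every State 5 column. The 21 E2 State 6 cells held 2601 Lpl reads at a median depth of 120932 reads. The 151 State 5 cells held 20469 at 118200. Lpl reads per cell were thus near each other, though 1 State 6 cell held 17.8% of the State 6 reads. A high Lpl level therefore did not mark State 5 apart from E2 State 1, nor clearly from E2 State 6.

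Greb1 ran from 8.97 to 54.4 CPM in State 5, with a median of 25.2. State 4 ran from 0 to 209 CPM with a median of 23.9, and its highest value again came from column 15. That sum held 4 cells, and 1 cell held 40.3% of the 268 Greb1 reads of all 43 State 4 cells. The State 5 and State 4 medians were close, and State 4 spread on both sides of State 5. Control State 2 held 1 Greb1 read in all against 551 in State 5, a ratio of 662 after division by the reads of each group, with a 95% counting interval of 118 to 26188. The reads carry no molecular identifiers, so copies made by amplification count as separate reads in that interval.

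**Figure D2:**
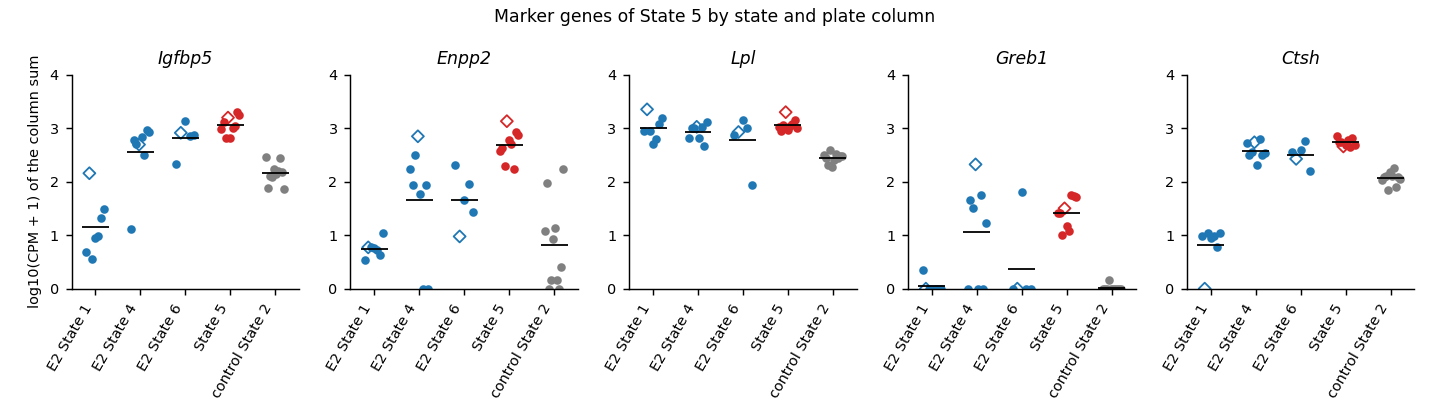
Level of the 5 marker genes, as log10(CPM + 1) of the reads summed per plate column, in E2 State 1, State 4, State 6 and State 5 and in control State 2. Points are columns, open diamonds are column 15 and lines are means of the plotted values. Every State 5 column lies above every control State 2 column for each gene, while State 5 and State 4 overlap.

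Cell by cell, 148 of 151 State 5 cells had a read of Igfbp5 (98.0%), 140 of Ctsh (92.7%), 151 of Lpl and 96 of Enpp2 (63.6%, exact 95% interval 55.4 to 71.2%). Greb1 was seen in 31 State 5 cells (20.5%, 14.4 to 27.9%), in 11 of 43 E2 State 4 cells (25.6%, 13.5 to 41.2%) and in 5 of 21 State 6 cells (23.8%). It was seen in 1 of 143 control State 2 cells and in 0 of 148 control State 1 cells, whose median depths were 149368 and 113738 reads against 118200 in State 5. Thinned to 20000 reads per cell, the Greb1 share was 15.2% in State 5 and 18.6% in State 4, and the Enpp2 share was 53.6% and 32.6%. All 5 markers were read together in 19 State 5 cells (12.6%), 4 of them in 79 cells, 3 in 49 and 2 in 4. Esr1, which encodes estrogen receptor alpha, was read in 38 State 5 cells (25.2%), in 30.2% of State 4 cells and in 25.2% of control State 2 cells.

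The levels of single State 5 cells were spread widely. The median cell had 800 CPM of Igfbp5, the lower quartile 431 and the upper quartile 1375. For Enpp2 the median cell had 40.2 CPM, the upper quartile 609 and the top decile began at 1527 CPM, while 55 of the 151 cells had no read. For each gene taken alone, the cell with the most reads held 10.9% of the Enpp2 reads of State 5 and 8.60% of the Igfbp5 reads.

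Inside State 5, no marker was called between late and early cells. The cells were split at the median pseudotime of 58.7 into 75 late and 76 early cells, which gave 5 to 11 late and 5 to 12 early cells per column. Igfbp5 averaged 1182 ± 588 CPM (SD, n = 9) in late and 1121 ± 456 in early cells, and was higher in late cells in 5 of 9 columns. Its log2 fold change was -0.01 (SE 0.17). Enpp2 had a fold change of 0.13 (SE 0.45) and was higher in 4 of 9 columns. Column 15 held 2099 CPM of it in late and 114 in early cells, and without that column the fold change was -0.24 (SE 0.33). Lpl had a fold change of -0.21 (SE 0.13), higher in 2 of 9 columns, and Ctsh one of 0.05 (SE 0.19), higher in 4 of 9 and at -0.12 without column 15. Greb1 averaged 32.5 ± 25.4 CPM in late and 21.1 ± 22.8 in early cells, higher in 6 of 9 columns, at a fold change of 0.67 (SE 1.45) that was 0.25 without column 15.

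**Figure D3:**
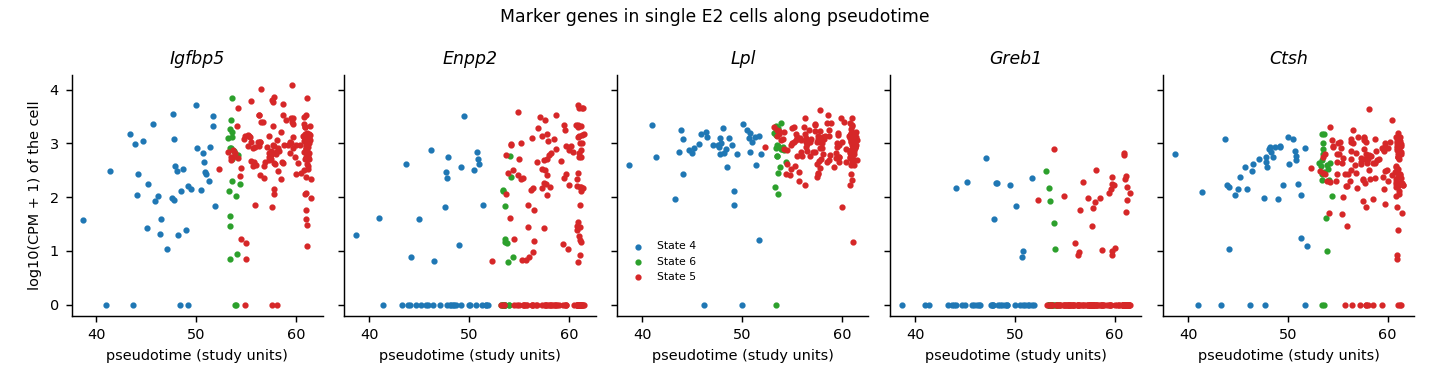
Level of each marker, as log10(CPM + 1), in single E2-treated cells against pseudotime, for State 4 (43 cells), State 6 (21) and State 5 (151). Points at 0 are cells without a read. Within State 5, cells with and without Enpp2 or Greb1 reads are found along the whole range of pseudotime from 52.3 to 61.5.

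Lgals1, which encodes the carbohydrate-binding protein galectin-1, differed by little but in every column. It averaged 41119 ± 8606 CPM in late and 33382 ± 7373 in early State 5 cells and was higher in late cells in 9 of 9 columns, with a log2 fold change of 0.28 (SE 0.04), below the size needed for a call. In column 15 the gap was narrow, as the paired plot shows. Creg1, which encodes a secreted and lysosomal glycoprotein, was higher in late cells in 7 of 9 columns, at 0.31 (SE 0.10). No gene of 10878 was called by edgeR between late and early cells (0%). At an unadjusted p below 0.05 there were 327 genes, fewer than that threshold passes by chance. DESeq2 called 34 genes, 15 higher and 19 lower, and limma-voom called 1, Prdx1. Among 3678 genes at 50 CPM or more, 7 were higher in every column (0.19%), among them Lgals1, Mrfap1, Rdx and Ndufv1, and 12 were lower in every column (0.326%), among them Stk26 and Bclaf1. These genes, apart from Lgals1, were chosen after their values were seen. Among so many genes, random signs alone would put some in these sets, so being in a set does not show a difference. Without column 15 the counts were 13 and 19. Late cells had more reads, with a median of 130456 against 105564, and Spearman's rho between pseudotime and reads over the 151 cells was 0.232. At 20000 reads per cell the Lgals1 fold change was 0.30 and that of Creg1 fell to 0.19. The part of depth in these differences was not tested.

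Against State 4 of the same E2 columns, State 5 was set apart most evenly by Lgals1 and Creg1. Lgals1 ran from 19492 to 47338 CPM over the State 5 columns with a median of 40699, and from 7787 to 34653 CPM over the State 4 columns with a median of 20222. State 5 was higher in 8 of 8 paired columns, at a log2 fold change of 0.95 (SE 0.11). Creg1 ran from 1497 to 2635 CPM in State 5 with a median of 2141, and from 696 to 1488 CPM in State 4 with a median of 1167. The Creg1 groups did not overlap, and the fold change was 0.87 (SE 0.14), in 8 of 8 columns. In E2 State 1 the means were 1641 CPM for Lgals1 and 331 CPM for Creg1, and in control State 2 they were 14607 and 704.

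**Figure D4:**
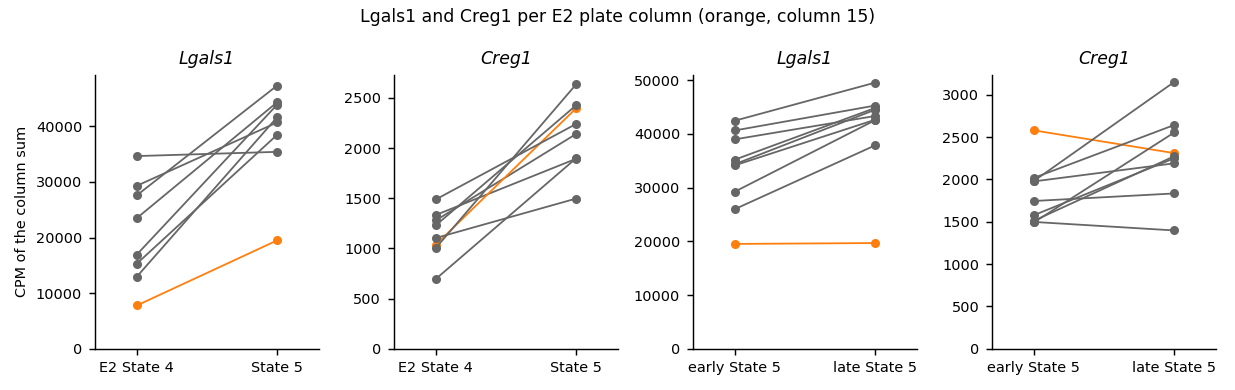
CPM of Lgals1 and Creg1 per E2 plate column, joined by lines, in State 4 and State 5 (8 columns) and in early and late State 5 cells (9 columns). Orange marks column 15. Both genes are higher in State 5 in 8 of 8 columns, and Lgals1 is higher in late cells in 9 of 9.

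These were the only 2 genes of 11228 called by edgeR (0.0178% called, both higher and none lower). At an unadjusted p below 0.05 there were 961 genes, 919 higher and 42 lower. DESeq2 called 154 genes (136 higher) and limma-voom called Creg1 alone. The paired sums were unequal: 13 to 19 State 5 cells gave 1587012 to 2594391 reads, and 3 to 9 State 4 cells gave 292614 to 1001277. The median fold change over all genes was 0.69, and it was 0.05 when as many State 5 cells as State 4 cells were summed in each column, so fold changes are read against those values. With equal cells Lgals1 stood at 0.93 and remained called, Creg1 stood at 0.79, Igfbp5 at 1.26 and Enpp2 at 2.07. Without column 15, Lgals1 stood at 0.88 and was the 1 gene called.

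Among the markers, Igfbp5 was higher in State 5 in 7 of 8 columns at 1.37 (SE 0.38) and Enpp2 in 7 of 8 at 2.66 (SE 0.71), and neither was called. Without column 15 the values were 1.304 and 2.97. With cells thinned to 20000 reads both were called, at 1.43 and 2.32. Lpl had a fold change of 0.38 (SE 0.19) and Ctsh one of 0.45 (SE 0.24), each higher in 6 of 8 columns, beside a median of 0.29 over the genes at 50 CPM or more. Without column 15 they stood at 0.29 and 0.53. Greb1 was higher in 4 of 8 columns, and its fold change was 0.93 (SE 1.22), 1.60 (SE 1.34) without column 15, -0.56 without the column block and -1.71 with equal cells, so its direction depended on the setting. Column 15 alone held 209 CPM of Greb1 in State 4, and without it the State 4 mean was 21.04 ± 23.02 CPM (SD, n = 7) in place of 44.5 ± 69.6. Trf, which encodes the iron carrier transferrin, was lower in State 5 in 7 of 8 columns, at -0.51 (SE 0.16), and was not called.

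Of 3691 genes at 50 CPM or more, 71 were higher in State 5 in all 8 columns (1.92%) and 4 were lower (0.108%: Zdhhc20, Pcyox1, Plscr2 and Psme1). These were looked at after their values were seen, and random signs alone would put some genes in either set. The 71 included ribosomal protein genes such as Rpsa (3993 against 3301 CPM) and Rps27a (2138 against 1596 CPM), whose reads can be shared with pseudogenes. Subunits of cytochrome c oxidase such as Cox4i1 (1992 against 1541 CPM) were also among them. The log2 fold changes of Rpsa, Rps27a and Cox4i1 were 0.24, 0.40 and 0.36. These lie near the median of 0.29 over the genes at 50 CPM or more, so these genes moved about as much as the typical gene. The counts of 71 and 4 were not set apart from that general shift. The 71 also included Soat1, which esterifies cholesterol (774 against 404 CPM, at 0.96), and Gm2a, the GM2 ganglioside activator of the lysosome (896 against 531 CPM, at 0.84). Idh1, an isocitrate dehydrogenase (484 against 331 CPM), stood at 0.57. Without column 15, 103 of 3572 genes were higher and 6 lower in all 7 columns.

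By gene list, Creg1 was the 1 member called against State 4, in the list of lysosomal genes. The median fold change of the measured members was 0.17 for the 19 lysosomal genes, 0.47 for 23 genes of the TCA cycle, 0.52 for 26 genes of fatty acid uptake and oxidation, 0.26 for 23 matrix genes, 0.13 for 15 keratin and OSE genes, 0.63 for 17 inflammatory genes and -0.18 for 28 cell cycle genes, beside 0.69 over all genes. Of the genes at 50 CPM or more the medians were 0.46 for 22 TCA cycle genes, 0.51 for 17 fatty acid genes and -0.06 for 8 cell cycle genes, beside 0.29 over all such genes. The proliferation marker Mki67 was read in 12 of 151 State 5 cells (7.95%), in 6 of 43 State 4 cells (13.95%) and in 20 of 143 control State 2 cells (13.99%). At 20000 reads per cell these shares were 2.65%, 9.30% and 4.90%. Top2a, a topoisomerase of dividing cells, was read in 52.98% of State 5, 46.5% of State 4 and 57.3% of control State 2 cells, or in 28.5%, 27.9% and 29.4% at 20000 reads per cell. The Mki67 and Top2a shares thus did not order the states alike.

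State 5 holds the last cells of the E2 branch, at pseudotime 52.3 to 61.5. Control State 2 runs from 36.4 to 50.3, beginning just after the last control State 1 cell at 36.2. It thus covers the control branch and not only its end. The State 5 and State 2 ranges did not overlap, so cells were not matched for their place along the tree. More genes were called between these states than in the comparisons above. Of 9622 genes, 132 were called (1.37%), 73 higher in State 5 (0.759%) and 59 lower (0.613%), and the median fold change over all genes was 0.03. Without column 15, 164 of 9780 genes were called (1.68%), 78 higher (0.798%) and 86 lower (0.879%), of which 118 were among the 132. The balance of higher and lower calls therefore rests on that column. Of 3722 genes at 50 CPM or more, 23 had all 9 State 5 columns above all 10 State 2 columns (0.618%) and 15 had them below (0.403%). The sums came from 151 and 143 cells and were alike in size, with 1587012 to 2594391 and 1575901 to 2505966 reads.

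All 5 markers were called higher, which the choice of State 5 as an E2 state and of its markers fixes in part. The log2 fold changes were 2.97 (SE 0.26) for Igfbp5, 4.28 (SE 0.82) for Enpp2, 2.08 (SE 0.16) for Lpl and 2.21 (SE 0.17) for Ctsh. Beside the markers, the called genes with the largest fold changes and columns that did not overlap were Tmem255a, Pkp4 and Tagap. Tmem255a, which encodes a transmembrane protein, ran from 75.5 to 497 CPM in State 5 and from 0 to 23.1 CPM in State 2, at 4.30 (SE 0.58), with the top value in column 15. Without column 15 its fold change was 3.79. Pkp4, which encodes the junctional protein plakophilin 4, ran from 22.1 to 112 CPM against 0 to 18.3 CPM, at 3.31 (SE 0.72). Tagap, which encodes a GTPase-activating protein, ran from 107 to 295 CPM against 0 to 43.1 CPM, at 3.07 (SE 0.50).

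On the lower side Thy1, a surface glycoprotein common on fibroblasts, ran from 0.598 to 34.8 CPM in State 5 and from 106 to 254 CPM in State 2, at -3.97 (SE 0.47). Inside State 5 it averaged 3.44 ± 5.28 CPM in late and 16.03 ± 18.4 in early cells. Synpo, which encodes the actin-associated protein synaptopodin, ran from 5.68 to 22.1 CPM against 25.02 to 89.8 CPM. Psap, the precursor of the saposins that activate lysosomal hydrolases, ran from 248 to 1560 CPM against 2530 to 5855 CPM, at -1.71 (SE 0.23). Its lowest State 5 value was in column 15, and without that column the fold change was -1.58. Sema3f, a secreted semaphorin, ran from 5.84 to 45.9 CPM against 53.7 to 147 CPM. Trf ran from 748 to 1543 CPM against 2155 to 3993 CPM, at -1.38 (SE 0.14). In State 4 Psap stood at 1137 ± 496 CPM and Trf at 1573 ± 463, both on the State 5 side of control State 2.

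**Figure D5:**
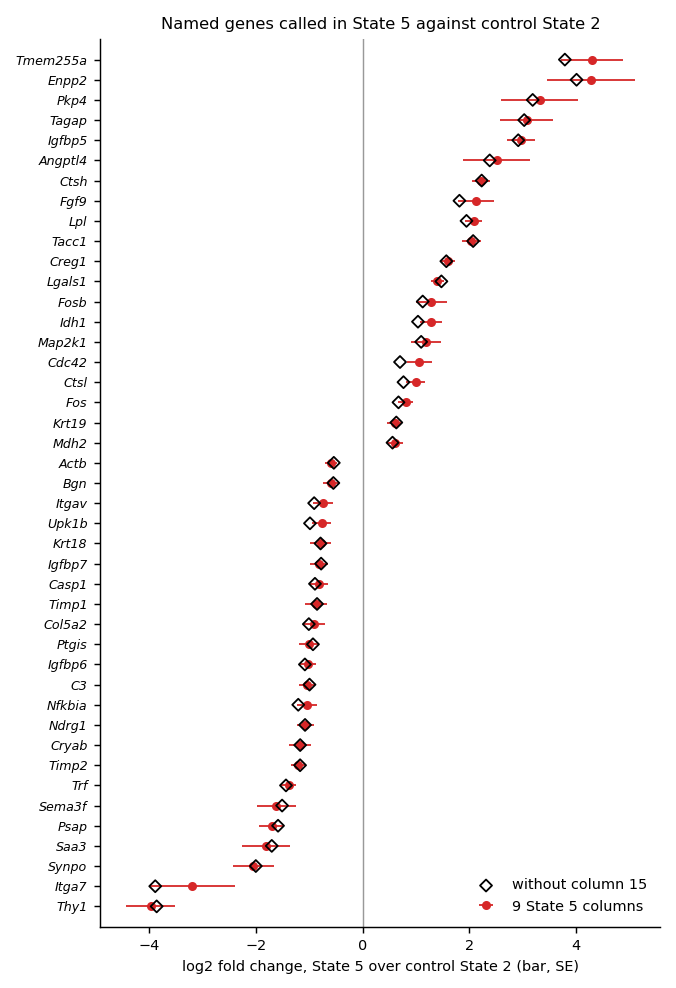
Log2 fold change of the named genes called in State 5 (9 E2 columns) against control State 2 (10 columns), with SE bars, for all columns (filled) and without column 15 (open diamonds). Greb1 is left out because State 2 holds 1 read of it. Without column 15 each of the genes shown keeps its direction.

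The list counts below stand beside 0.759% of all genes called higher and 0.613% called lower in this comparison. A list that holds a marker counts it, so such counts are fixed in part. Lysosomal genes moved in both directions. Of 19 tested, 3 were called higher and 2 lower, with a median fold change of -0.06. Ctsh and Creg1 (1.60, SE 0.13) were joined by Ctsl, the protease cathepsin L, at 825 ± 360 CPM against 417 ± 82.3 CPM and 1.00 (SE 0.18), or 0.77 without column 15. The lower genes were Psap and Npc2, which carries cholesterol out of the lysosome.

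Of 24 genes of fatty acid uptake, storage and oxidation, 2 were called higher, Lpl and Angptl4, and none lower (median 0.48). Angptl4, an inhibitor of lipoprotein lipase, averaged 75.6 ± 41.2 CPM in State 5 and 13.3 ± 14.4 in State 2, at 2.51 (SE 0.63). It was not called without column 15, where its fold change was 2.38. In the TCA cycle list 2 of 23 genes were called higher (median 0.29), Mdh2 at 0.60 (SE 0.15) and Idh1 at 1.28 (SE 0.20). Idh1 stood at 400 CPM in the median State 5 column but at 1057 in column 15, and its fold change was 1.04 without it. None of the 16 glycolysis genes was called (median -0.04), and Gapdh stood at 971 ± 188 CPM in State 5 and 977 ± 190 in State 2.

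The IGF binding proteins went different ways. Igfbp5 was called higher, whereas Igfbp6 was lower, at 185 ± 37.2 against 379 ± 67.4 CPM and -1.03 (SE 0.15), and Igfbp7 was lower, at 432 ± 94.0 against 765 ± 207 CPM and -0.82 (SE 0.17). The other 8 of 11 genes of the IGF system were not called, and the median was -0.30. Enpp2 was the 1 called of 7 genes of lysophosphatidic acid signalling.

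Of 15 genes known to be induced by estradiol, 2 were called higher, Greb1 and Krt19, and 1 lower, Krt18 (median 0.54). Krt19, a simple keratin, ran from 495 to 833 CPM in State 5 and from 265 to 491 CPM in State 2, at 0.60 (SE 0.14), and Krt18 averaged 239 ± 87.6 against 415 ± 98.0 CPM, at -0.79 (SE 0.19). In the list of keratin and OSE identity genes 1 of 14 was called higher (Krt19) and 2 lower (Krt18 and Upk1b, a uroplakin, at -0.77 with SE 0.19). Without column 15, Krt8 was also called lower, at -0.66. None of 13 receptors and coregulators was called. Esr1 averaged 24.5 ± 20.0 CPM in State 5, 25.6 ± 21.9 in State 4 and 28.5 ± 26.3 in State 2, and Esr2 averaged 1.55 ± 2.04, 0 and 3.44 ± 7.03, so no difference in the receptors was detectable at this depth.

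Of 17 genes of the TNF, NF-kB and inflammatory list 4 were called lower and none higher, with a median fold change of -0.80, beside 0.613% of all genes called lower. The other 13 were not called, and Vcam1 was called lower as well without column 15. Saa3, an acute-phase protein, averaged 114 ± 72.3 CPM in State 5 and 401 ± 372 in State 2, at -1.80 (SE 0.45). The NF-kB inhibitor gene Nfkbia was at -1.05 (SE 0.19), the complement gene C3 at -1.04 (SE 0.15) and the caspase gene Casp1 at -0.82 (SE 0.18). C3 ran from 752 to 1505 CPM in State 5 and from 1585 to 3256 CPM in State 2. Against State 4, Casp1 was instead higher in State 5 in 8 of 8 columns, at 162 against 98.9 CPM, though not called. The chemokine gene Ccl2 averaged 366 ± 249 CPM in State 5, 716 ± 471 in State 4 and 633 ± 354 in State 2 and was not called.

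Of 23 matrix genes 4 were called lower and none higher (median 0.06), and these included 2 inhibitors of matrix metalloproteinases. Timp2 ran from 360 to 693 CPM in State 5 and from 1023 to 1469 CPM in State 2, at -1.21 (SE 0.13), and Timp1 was at -0.88 (SE 0.20). The others were Col5a2, a collagen chain, at -0.91 (SE 0.21), and Bgn, the proteoglycan biglycan, at -0.60 (SE 0.14). Without column 15 there were 5 lower and 1 higher, Col6a2. Among 14 integrin and focal adhesion genes Itga7 (-3.19, SE 0.81) and Itgav (-0.74, SE 0.19) were called lower. Among 20 actin and contractile genes Cdc42 was called higher and Actb lower (-0.59, SE 0.12). Cdc42 averaged 506 ± 331 CPM with column 15 at 1379, and its fold change of 1.06 (SE 0.23) was 0.70 without that column.

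In a list of 14 genes that the study names as higher with E2, 6 were called higher and none lower (median 0.97). That list leaves out the markers and Nanog, which the study also names as higher. In a list of 12 genes that the study names as lower, 6 were called lower and none higher (median -0.81). Both lists were chosen on these cells and are not independent evidence of their direction. Fgf9, a growth factor, averaged 176 ± 110 CPM in State 5 and 40.7 ± 19.4 in State 2, at 2.12 (SE 0.34), with column 15 at 443 CPM and a fold change of 1.81 without it. Tacc1, a centrosomal coiled-coil protein, ran from 250 to 483 CPM against 48.3 to 125 CPM, at 2.04 (SE 0.18). The kinase gene Map2k1 was at 1.18 (SE 0.28). On the lower side stood Cryab, a small heat shock protein, at -1.17 (SE 0.21), and Ptgis, the prostacyclin synthase, whose columns ran from 132 to 430 CPM in State 5 and from 519 to 809 CPM in State 2. The kinase genes Mapk14 and Rock2 were called only without column 15, at 1.14 and 0.85. In State 4, Fgf9 already averaged 174 ± 119 CPM, and Tacc1 averaged 216 ± 97.8 CPM.

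Immediate early genes had 2 of 16 called higher (median 0.02), Fos at 0.80 (SE 0.15) and Fosb at 1.29 (SE 0.29), and the hypoxia list had 1 of 18 called lower, Ndrg1, at -1.07 (SE 0.15). The heat shock list had 1 of 19 called lower (Cryab), or 3 without column 15, where the metallothionein genes Mt1 (-0.50) and Mt2 (-0.62) were called too, and the growth factor list had 1 of 16 called higher (Fgf9). No gene was called among 19 of the cell cycle, 18 p53 targets, 13 TGFB and SMAD genes, 13 circadian genes and 20 of cell adhesion and polarity.

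Markers of the other cells that an OSE culture could hold were looked at in the same sums. The OSE markers Krt7, Krt8, Krt18, Krt19, Upk1b, Upk3b and Wt1 belong to a list of 16 genes. These genes summed to 5524 to 7491 CPM in State 5 and 6757 to 8025 CPM in State 2. The ranges were 5886 to 6969 CPM in E2 State 1, 5078 to 8968 in State 4 and 4724 to 8296 in E2 State 6. All overlapped State 5, so the sum did not tell these states apart. The 9 stromal fibroblast genes in the table summed to 1576 to 5083 CPM in State 5 and 998 to 3093 in State 4. They summed to 1886 to 2456 CPM in State 2 and 3142 to 10052 in E2 State 1. The top State 5 value was in column 15, and Thy1 was the 1 of 5 tested that was called, lower. The 3 leukocyte genes summed to 25.3 to 141 CPM in State 5, against 32.5 to 155 in State 2, the 5 smooth muscle and pericyte genes to 7.39 to 49.7 CPM and the 4 theca genes to 34.3 to 113 CPM. The 4 endothelial genes summed to 460 to 760 CPM and the 4 granulosa genes to 142 to 540 CPM, mostly from Pecam1 and Amhr2 respectively, and the 4 oviduct genes to 68.5 to 157 CPM. Only 1 to 4 members of each of these 6 lists had enough reads to be tested between State 5 and State 2, none of those was called, and of the members in the table none was at 0 in every State 5 column. Other defining markers, among them Foxl2 and Fshr for granulosa cells, Cyp17a1 for theca cells, Cdh5 for endothelium, Lyz2 for leukocytes, Myh11 for smooth muscle and Foxj1 for oviduct, had no row in the gene table, which keeps genes seen in at least 10 cells. The part of other cell types in the results was not tested.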

How the data were processed

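Primary OSE cells of 2 groups, vehicle and E2, were profiled on 1 C1 chip with libraries of 3′ transcript ends. The authors estimated read counts per gene and cell with kallisto 0.44.0 (GRCm38 in the submitters' processing notes) and summed transcripts to genes with tximport. These estimated counts were deposited without normalisation and were rounded here after summing. The authors kept sites with 1 live cell and 20000 to 250000 reads, cells within 3 median absolute deviations for genes and mitochondrial reads, and genes seen in at least 10 cells. The deposited cell annotation also gave the count of genes detected, the percent of mitochondrial reads, the scran size factor (a ratio) and pseudotime, a score computed by the authors with monocle2 on imputed values, with the states. The imputed log values and the size factors were not used. The libraries carry no molecular identifiers, so intervals and floors cover counting error only. Replicates are plate columns, treated as coming from 1 suspension per group.

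Counts were summed per plate column and state (at least 3 cells), scaled by TMM and fitted with edgeR 4.0.16 in R 4.3.3, with filterByExpr and the column as a block for State 4 and for late against early cells, which share libraries. State 2 was compared without a block. The 589 cells had a median of 120932 reads. Reads per cell were tested by an exact sign-flip permutation in scipy 1.17.1. The members and gene lists were chosen with earlier results of these data known. Genes named were the 5 markers and the genes of the lists taken from the study. Each list also gave up to 4 called members or 2 of the most expressed. The called genes with the largest fold changes that kept their sign in every column or did not overlap were named too. Up to 10 per direction were taken against State 4 and up to 5 otherwise, at 20 CPM or more. Npc2, Krt8, Vcam1, Col6a2, Mt1, Mt2, Mki67 and Top2a were named after their values were seen. Genes most like Igfbp5 and Greb1 are not given, since the sums fall into separate groups. Alternatives were DESeq2 1.42.0, limma-voom 3.58.1, other size factors, filters, cell minimums, thinning, other pseudotime splits, no block and leaving out each column. A 50 CPM minimum and equal cells per column and state were chosen after seeing the data. The scripts were tested on simulated data.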

Additional observations from a re-analysis of the deposited data

Results flagged for a closer look

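In 47 groups of column values, 7 held a column far from the others by Dixon's criterion, which chance meets in about 1 of 20 groups, and 4 of the 7 were in column 15, the library that stood apart over all genes. Within State 5, Lpl was at 1981 CPM in column 15 with the nearest column at 1400, Tmem255a was at 497 CPM in column 15 with the nearest at 161, and Thy1 was at 34.8 CPM in column 16 with the nearest at 14.8. In State 4 of the E2 columns, column 15 held 701 CPM of Enpp2 with the nearest column at 309, and 209 CPM of Greb1 with the nearest at 55.5. In control State 2, Greb1 was at 0.444 CPM in column 4, from 1 read, with the other columns at 0, and Psap was at 5855 CPM in column 7 with the nearest at 4207.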

How the results depend on the processing

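The count against State 4, 2 genes, was the most dependent on the processing. It was 154 with DESeq2, 8 with cells thinned to 20000 reads, 1 with limma-voom, with RLE size factors or with equal cells per column and state, and 0 with at least 5 cells per sum, with no replicate block or with a 50 CPM minimum. Leaving out 1 column gave 1 to 3, with 1 without column 11, 15 or 16. The cause of these differences was not tested. The count for late against early cells, 0, was 34 with DESeq2, 1 with limma-voom and 0 whichever column was left out. The count against control State 2, 132, was 259 with DESeq2 and 109 to 164 when 1 column was left out, the highest without column 15. The difference in reads per cell turned to -6105 with columns of at least 1 cell per state, and ran from -11194 (without column 19) to 8351 (without column 15) when 1 column was left out. Thinning moved the share of State 5 cells with a read to 94.0% for Igfbp5 and 53.6% for Enpp2. None of the 2 genes called against State 4, nor of the 44 named genes called against control State 2 (39 or 40 with a 50 CPM minimum or thinning), changed sign in that comparison. The other called genes were not followed. State 4 sums held few cells, and differences of genes at low levels were not detectable at that depth.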
